A study of Mus musculus with 12 samples.

Results

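The nuclear genes for the protein subunits of the mitochondrial respiratory chain were described in hippocampal RNA from mice of 4 genotypes. They were chosen by symbol from the table of counts: every row beginning Nduf (without the Ndufaf assembly factors), Cox4 to Cox8, Uqcr or Atp5, and Sdha, Sdhb, Sdhc and Sdhd. This gave 85 of the 24421 rows, of which 38 were assigned to complex I, 4 to complex II, 8 to complex III, 18 to complex IV and 17 to complex V. Of these 85 rows, 79 passed the filter on low counts, as did 13065 rows of the whole table. The other 6 (Ndufs5, Ndufa4l2, Cox4i2, Cox7b2, Cox8b and Cox8c) are given as levels without a test. The choice by symbol also took in Atp5s and Atp5sl, whose products are not regarded as subunits of the ATP synthase, and Cox7a2l, a factor of respiratory supercomplexes. It left out Cyc1, the cytochrome c1 subunit of complex III, which enters neither the sums nor the core proteins of that complex and is given with the electron carriers. Subunits encoded by mitochondrial DNA were not analysed here.

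The 12 libraries were 3 each from wild type (WT), 5xFAD, p75NTRko and 5xFAD/p75NTRko mice, 2 months old, all of which had received BrdU, a thymidine analogue taken up by dividing cells. 5xFAD mice carry human amyloid precursor protein and presenilin transgenes with familial Alzheimer's disease mutations, driven by the neuronal Thy1 promoter. The name p75NTRko stands for a knockout of the p75 neurotrophin receptor, encoded by Ngfr. The series title asks how that receptor shapes adult hippocampal neurogenesis in this disease model. QuantSeq 3′ libraries were sequenced, in which a fragment near the polyadenylated end stands for a transcript, so that counts carry no gene-length term and levels can be set side by side between genes.

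Complexes I to IV of the inner mitochondrial membrane pass electrons from NADH and succinate to oxygen, and complexes I, III and IV pump protons as they do so. Complex V, the ATP synthase, lets the protons back and makes ATP, on which neurons depend for ion pumping and synaptic transmission. Most subunits are encoded in the nucleus, and their promoters are known for binding sites of the factors NRF1, GABP (an ETS factor), YY1 and the estrogen-related receptors (ERR).

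The promoter letters of these genes were therefore read from the RefSeq windows of GRCm38.p6, 250 bases before to 50 bases after each start, which were at hand for 70 of the 85 genes. The letters searched, on both strands, were TGCGCATGC for NRF1, CCGGAAG for ETS factors, AAGATGGCG for YY1 and TCAAGGTCA for ERR. At least 1 of these 4 strings was present in the windows of 28 of the 70 genes (40%), against 13% of all 27025 genes with windows. The ETS string was in 16 (22.9%, against 9.93% of all genes), the YY1 string in 8 (11.4%, against 1.64%), the NRF1 string in 5 (7.14%, against 1.72%) and the ERR string in 2 (2.86%, against 0.466%). The 27025 genes were not limited to those expressed here, whereas 67 of the 70 passed the filter on low counts. The shares are therefore of unlike sets. A match is a description of the letters and not a measured binding site. One stretch from each complex is shown with the matched letters in capitals, read 5′ to 3′ on the gene's strand. In these stretches the string lies as its reverse complement: NRF1 in Ndufa6 (chr15:82354342-82354398, minus strand), ETS in Sdhd (chr9:50603865-50603919, minus strand), Uqcrh (chr4:116075071-116075104, minus strand) and Cox6b1 (chr7:30626115-30626166, minus strand), and ERR in Atp5g3 (chr2:73911346-73911402, minus strand).
Ndufa6: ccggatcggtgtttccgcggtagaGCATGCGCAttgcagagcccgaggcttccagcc
Sdhd: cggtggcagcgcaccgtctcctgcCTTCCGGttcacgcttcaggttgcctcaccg
Uqcrh: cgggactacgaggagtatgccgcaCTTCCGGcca
Cox6b1: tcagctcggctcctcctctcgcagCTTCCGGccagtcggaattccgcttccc
Atp5g3: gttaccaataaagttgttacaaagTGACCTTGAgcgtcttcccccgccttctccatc
Mean levels of the genes with at least 1 string ran from 7.74 CPM (counts scaled to a common library total) for Atp5g2 to 1555 CPM for Atp5g3.

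Libraries held 4316739 to 6683613 gene counts, so that 3 counts, taken as the limit of measurement, stood for 0.446 to 0.690 CPM. Checks of the labels bear on the comparisons below. Ngfr lay between 5.95 and 10.5 CPM in the 6 libraries labelled p75NTRko or 5xFAD/p75NTRko and between 0.166 and 1.95 CPM in the other 6, against the direction of the label, so that receptor genotypes are given as the libraries are labelled. Thy1 lay between 1596 and 4019 CPM in the 6 libraries labelled as transgene carriers and between 688 and 940 CPM in the other 6. Xist was at 360 to 440 CPM in all WT and all 5xFAD/p75NTRko libraries and in p75NTRko replicate 1. It was at 1.53 to 3.58 CPM in all 5xFAD libraries and p75NTRko replicates 2 and 3. Sex and genotype therefore cannot be told apart between 5xFAD and WT, nor between 5xFAD/p75NTRko and 5xFAD. Between p75NTRko and WT, between 5xFAD/p75NTRko and p75NTRko, and in the interaction, sex and genotype are partly mixed. The summed level of 10 markers of hippocampal neurons, all 10 of which passed the filter, was 1253 to 1739 CPM for WT, 1915 to 2363 for 5xFAD, 2005 to 2147 for p75NTRko and 1438 to 2108 for 5xFAD/p75NTRko. The 10 thalamic markers summed to 542 to 803 CPM for WT, 362 to 430 for 5xFAD, 338 to 367 for p75NTRko and 314 to 956 for 5xFAD/p75NTRko. For the 10 choroid plexus markers the sums were 2400 to 5912, 313 to 1923, 4413 to 7229 and 170 to 7166 CPM in the same order. Sums of the 8 striatal markers, of which 7 passed the filter, were 183 to 252, 132 to 156, 134 to 144 and 108 to 165 CPM. The 8 oligodendrocyte markers summed to 3911 to 6895 CPM for WT, 5123 to 7366 for 5xFAD, 6133 to 7472 for p75NTRko and 3951 to 5129 for 5xFAD/p75NTRko, and 0 of 5 blood markers passed the filter, 4 of them at 0 in all libraries. The part of these differences in the values of the respiratory chain was not tested, and in tissue RNA fewer cells of a type and less RNA per cell cannot be told apart.

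Respiratory chain transcripts made up 1.72% to 1.87% of gene counts in each library, and 54 of the 85 rows had a mean above 100 CPM. The most abundant was Atp5g3, which encodes the c subunit of the ATP synthase rotor, at 1555 CPM, followed by Cox6c, a small complex IV subunit, at 1497 CPM, and Atp5a1, the alpha subunit of the catalytic F1 head, at 847 CPM. In complex I the highest was the accessory subunit Ndufb3 at 701 CPM and the lowest that passed the filter was the iron-sulfur subunit Ndufs8 at 28.1 CPM. The 4 subunits of complex II followed the order of their letters, with Sdha, the flavoprotein that oxidises succinate, at 357 CPM, the iron-sulfur subunit Sdhb at 173 CPM, and the membrane anchors Sdhc and Sdhd at 96.2 and 47.3 CPM. In complex III the hinge protein Uqcrh stood highest at 444 CPM and the core protein Uqcrc1 lowest at 87.2 CPM. The lowest rows of complexes IV and V that passed the filter were Cox6b2 at 2.59 CPM and Atp5g2 at 7.74 CPM.

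**Figure D1:**
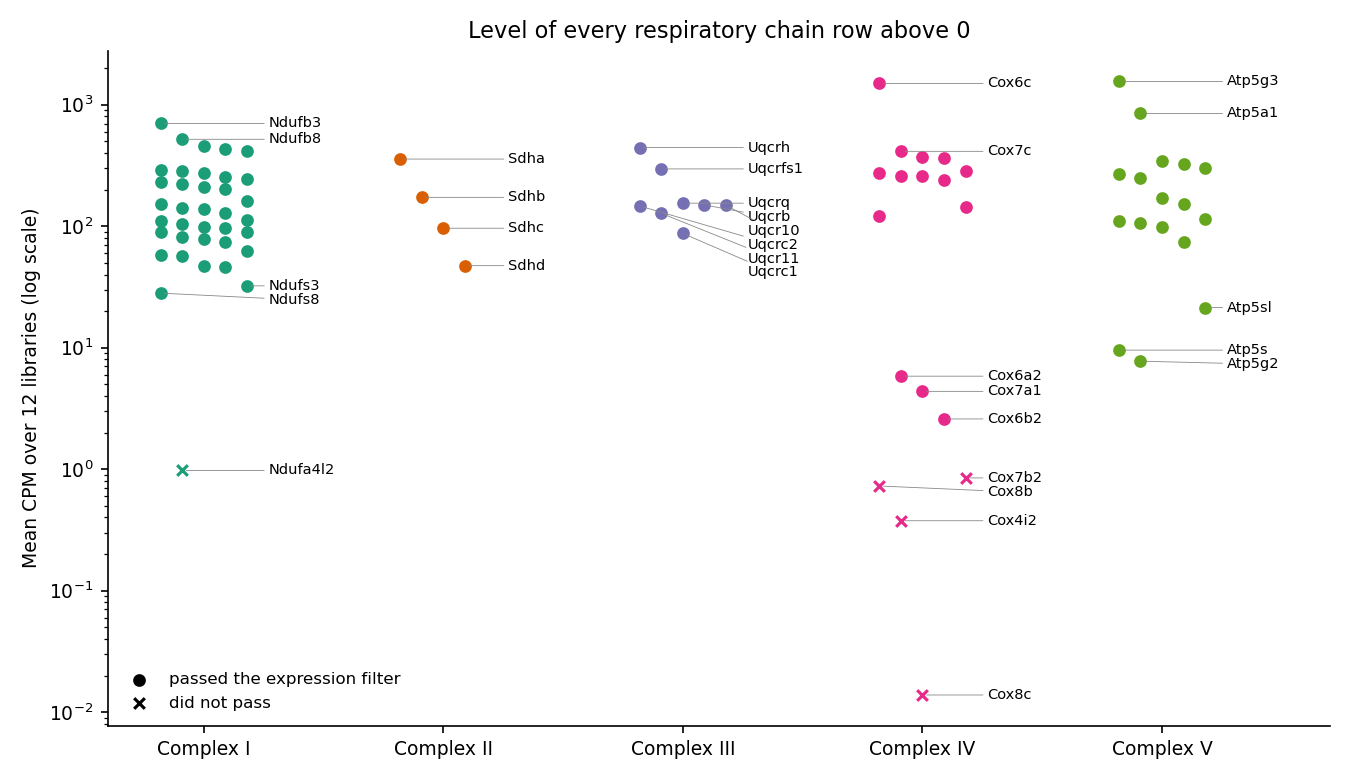
Mean CPM over 12 libraries (log axis) of each respiratory chain row above 0, by complex, with circles for rows that passed the filter on low counts and crosses for those that did not. The circles of complex I lie between 28.1 and 701 CPM and its cross, Ndufa4l2, far below them, with Atp5g3 (1555 CPM) and Cox6c (1497 CPM) on top over the whole chain and the isoforms Cox6a2, Cox7a1 and Cox6b2 at 5.83 CPM or less.

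Complex IV held the widest range, because its tissue-specific isoforms are rows of their own. The widely expressed isoform Cox6a1 exceeded the heart and muscle isoform Cox6a2 by 22.8 to 69.2 times over the 12 libraries (median 45.8), and Cox7a2 exceeded the muscle isoform Cox7a1 by 35.6 to 104 times (median 65.0). Cox6b1 exceeded the testis isoform Cox6b2 by 46.1 to 309 times (median 120). Cox4i1 averaged 258 CPM, whereas Cox4i2, the isoform known from lung and from low oxygen, had 0 to 5 counts per library. Of the subunit 8 isoforms, Cox8a averaged 373 CPM, Cox8b had 0 to 12 counts and Cox8c 1 count in all 12 libraries. Ndufa4, now counted among the subunits of complex IV, averaged 153 CPM and its paralogue Ndufa4l2 had 2 to 10 counts per library. The c subunit of the ATP synthase can be made from 3 genes with the same mature product: Atp5g3 supplied 94.7% to 95.7% of their summed CPM in each library, Atp5g1 3.91% to 4.74% and Atp5g2 0.309% to 0.705%.

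Some rows measure their gene with limits, since reads that align to several places cannot be assigned. Of the 85 genes, 28 shared at least 1 run of 50 bases within the last 300 bases of their transcript with transcripts of another gene, on either strand, and 8 shared at least 50% of these runs: Ndufs3, Ndufs5, Ndufb6, Uqcrc2, Cox5a, Cox7c, Atp5g2 and Atp5l. Ndufs5, an accessory subunit of complex I, was at 0 counts in all 12 libraries and shared 54.6% of its runs with the pseudogene BC002163. Cox7c shared 99.2%, Atp5g2 98.4%, and Uqcrc2 100%, the last with Pdzd9. These 8 levels and their differences are uncertain. This holds for the share of Atp5g2 among the c subunit genes and for its place as the lowest row of complex V.

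Within genotypes the respiratory chain was measured with small spread. The median SD of log2 CPM between libraries of a genotype was 0.10 for the 79 rows, which had a median level of 150 CPM, and 0.22 for all 13065 genes, which had a median of 23.2 CPM. Among genes above 50 CPM, the highest of 12 libraries was less than 1.5 times the lowest for 58 of 68 respiratory chain rows (85.3%) and for 62.4% of all 4114 genes. Atp5g3 had the smallest SD, 0.032, and its 12 values lay between 1441 and 1628 CPM. The largest ratio of highest to lowest library was that of Sdhd, 15.1 times. Atp5l, the g subunit of the ATP synthase, ranged from 66.7 to 174 CPM with genotypes overlapping throughout: WT libraries had 125, 88.6 and 73.8 CPM, 5xFAD libraries 140, 66.7 and 174, p75NTRko libraries 111, 78.0 and 131, and 5xFAD/p75NTRko libraries 77.4, 154 and 108.

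A single library accounted for many of the wide ranges. WT replicate 2 was the lowest library for 25 and the highest for 19 of the 79 rows (20.1% and 16.5% of all genes), and for 10 rows it lay more than 0.3 log2 units below the next lowest library, a bound set after the values were seen. These were Ndufa1, Ndufa4, Ndufb6 and Ndufs3 of complex I, Sdhd, Uqcrfs1, Cox7c, and Atp5a1, Atp5j and Atp5s of complex V. For the other 11 libraries the number was 0, except 1 (Cox6c) in 5xFAD/p75NTRko replicate 1. Among genes above 50 CPM it was 7 of 68 respiratory chain rows (10.3%) and 311 of 4114 genes (7.56%) in WT replicate 2, and at most 0.608% of genes in any other library.

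Sdhd had 33.5, 6.005 and 64.7 CPM in WT libraries. The 5xFAD libraries had 57.4, 52.8 and 36.6 CPM, the p75NTRko libraries 42.6, 31.7 and 56.8, and the 5xFAD/p75NTRko libraries 58.3, 90.5 and 37.2. The value in WT replicate 2 rested on 37 counts, against 138 to 464 in the other libraries, and the groups overlapped with and without it. Atp5j, coupling factor 6 of the ATP synthase stalk, had 172, 89.6 and 173 CPM in WT and 161 to 202 CPM in the other 9 libraries. Ndufa1, an X-linked accessory subunit of complex I, had 221, 135 and 270 CPM in WT and 227 to 293 CPM elsewhere.

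The deviation of this library moved with the base composition of the transcript end. In rows whose last 300 bases hold up to 40% G and C (22 rows) the median deviation of WT replicate 2 from the row's mean was -0.26 log2 units, in those with 40% to 50% (32 rows) it was -0.026, and above 50% (25 rows) it was 0.12. All genes above 50 CPM went the same way, with medians of -0.065, 0.12 and 0.19. In 5xFAD/p75NTRko replicate 2 the respiratory chain medians ran the other way, 0.17, 0.023 and -0.049. Whether base composition produced these deviations was not tested. Medians over all tested rows and counts at an unadjusted p below 0.05 are therefore also given without replicate 2 for comparisons with WT. So are the rows named in those comparisons for their small p. Medians of functional groups, and all values of genes outside the respiratory chain, are given only with that library included.

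**Figure D2:**
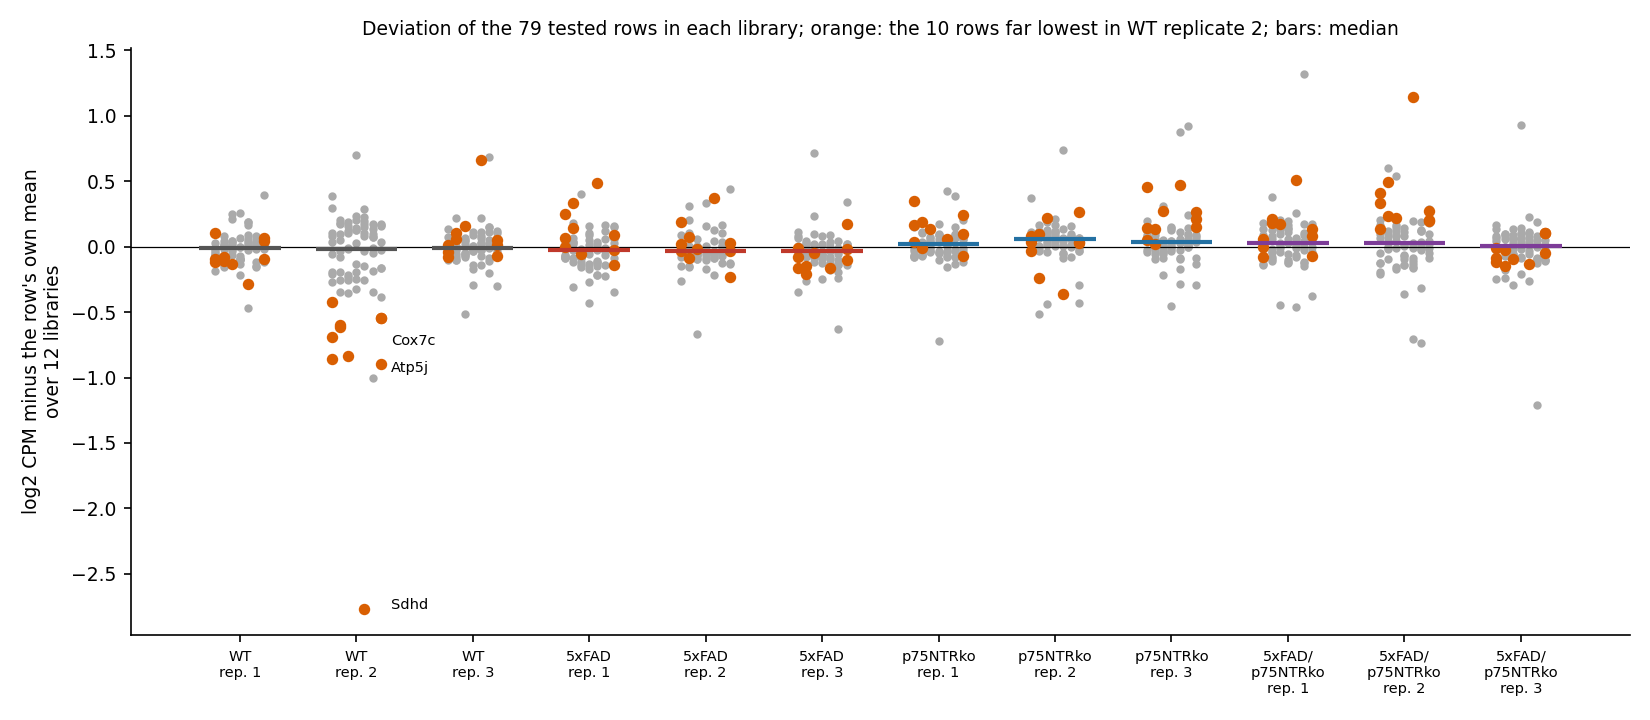
log2 CPM of each of the 79 tested rows minus that row's mean over 12 libraries, by library; coloured bars are medians and orange points the 10 rows that lay more than 0.3 log2 units below every other library in WT replicate 2. In that library the orange points lie below most other rows, with Sdhd (6.005 CPM) lowest, and in the other libraries they mix with the rest.

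Summed over their rows, the complexes differed little between libraries. Complex I summed to 6547 to 6980 CPM, a ratio of 1.07 between the highest and the lowest of 12 libraries, complex II to 627 to 743 CPM (1.184), complex III to 1466 to 1674 CPM (1.14), complex IV to 3839 to 4516 CPM (1.176) and complex V to 4454 to 4967 CPM (1.12). Complex I made up 37.5% of the summed CPM, complex V 26.5%, complex IV 23.6%, complex III 8.65% and complex II 3.75%. Complex I averaged 6615 CPM ± 68.6 for WT, 6582 ± 31.2 for 5xFAD, 6881 ± 84.5 for p75NTRko and 6853 ± 117 for 5xFAD/p75NTRko (SD, n = 3 each). Its 6 libraries with the receptor label, at 6751 to 6980 CPM, all lay above the 6 without it, at 6547 to 6694 CPM, a difference of the means of 4.06% (3.99% with RLE scaling and 4.19% with library size alone, without overlap in either). This split was noticed after the values were seen and has no test. Of the 36 tested rows of complex I, 0 were apart between the same libraries (background 0.161% higher and 0.161% lower). The mean was higher under the receptor label for 26 of them (72.2%). A higher mean under the label was found for 71.4% to 100% of the rows of each complex and for 59 of all 79 (74.7%), against 50.6% of all genes. These counts were not made without WT replicate 2. That library has no receptor label and was the lowest for 25 and the highest for 19 of the 79 rows. Complex III averaged 1507 ± 56.4 for WT, 1516 ± 74.3 for 5xFAD, 1655 ± 16.5 for p75NTRko and 1540 ± 63.4 for 5xFAD/p75NTRko, with the 3 p75NTRko libraries at 1645 to 1674 CPM above the highest of all others, 1602 CPM. Complexes II to V overlapped between receptor-labelled and other libraries, complex III at 1468 to 1674 against 1466 to 1602 CPM. The sum of all 5 overlapped too, at 17580 to 18570 against 17500 to 17860 CPM. Cytosolic ribosomal protein genes, another set of short and abundant transcripts, summed to 12880 to 13470 CPM for WT, 12650 to 13150 for 5xFAD, 13220 to 13850 for p75NTRko and 13030 to 13810 for 5xFAD/p75NTRko.

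**Figure D3:**
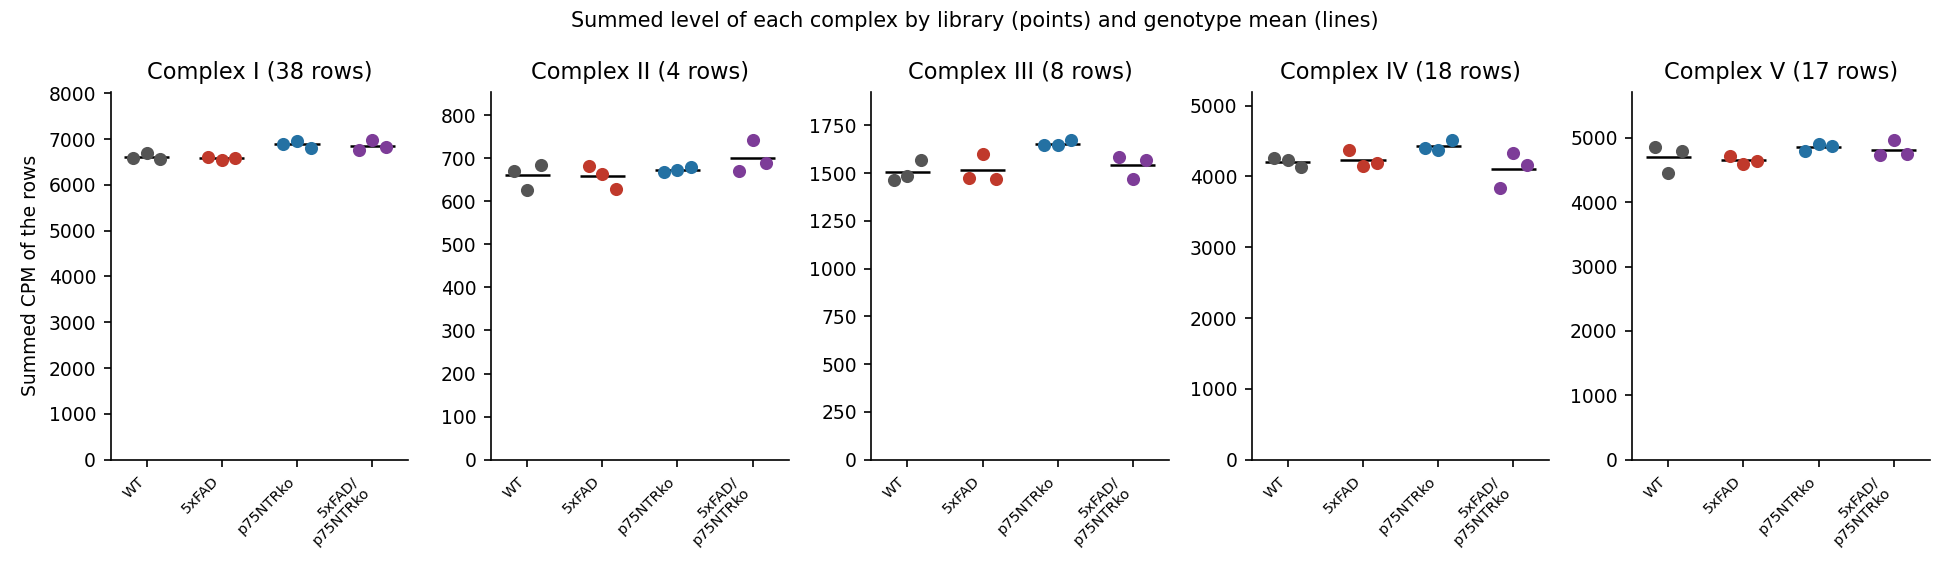
Summed CPM of the rows of each complex by library (points) with the genotype mean (line), each axis starting at 0. The complexes stay within a narrow range. With Ndufa4 counted in complex I, its 6 receptor-labelled libraries (6751 to 6980 CPM) lie above the 6 others (6547 to 6694 CPM). Without Ndufa4 they overlap.

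Genotypes were compared gene by gene with edgeR's quasi-likelihood test over all 13065 genes, and a gene was called where its Benjamini-Hochberg adjusted p was below 0.05. Of the 79 respiratory chain rows, 0 were called in each of the 6 comparisons. The 95% interval of the fold change lay within 1.5-fold either way for 66 to 73 of the 79 rows in the 5 pairwise comparisons (83.5% to 92.4%), against 49.7% to 56.7% of all genes, and for 62 of 79 (78.5%, all genes 29.9%) in the interaction. These shares were not matched for level: the 79 rows had a median of 150 CPM and all genes 23.2 CPM. Comparisons share libraries, so that their values are set side by side and not counted as separate evidence. The libraries are labelled as biological replicates, and nothing in the sources used here says more on how they were separated.

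**Figure D4:**
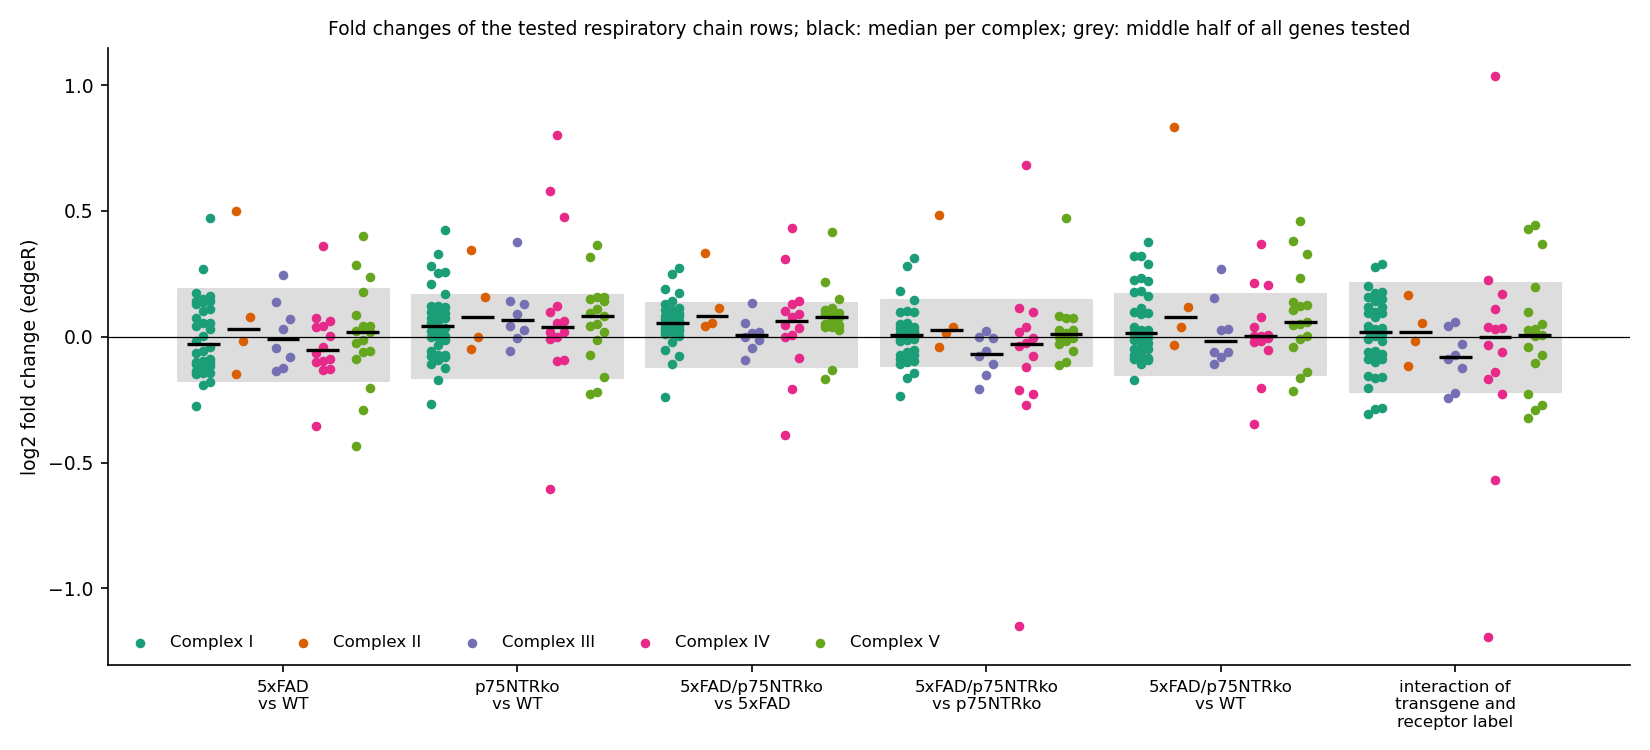
log2 fold changes (edgeR) of the 79 tested rows in the 6 comparisons, coloured by complex, with a black line at each complex's median and a grey band for the interquartile range of all 13065 genes. Most points lie within or close to the band; the largest are Cox7a1 (0.80, -1.15 and -1.19), Cox6a2 (1.04 in the interaction) and Sdhd (0.83 in 5xFAD/p75NTRko against WT), whose lowest library is WT replicate 2.

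Against WT, the 5xFAD libraries showed 0 called rows (background 0.0536% of all genes). At an unadjusted p below 0.05 there were 5 rows, 2 higher (background 7.73%) and 3 lower (background 6.14%), together 6.33% against 13.9% of all genes, and DESeq2 called 1 row (background 0.742%). Libraries of the 2 genotypes did not overlap for 5 rows that were higher in 5xFAD (6.33%, background 10.5%) and 14 that were lower (17.7%, background 9.02%). The median log2 fold change of the 79 rows was -0.015, that of all genes -0.0036, and 38 of 79 were above 0. The row with the smallest p was Ndufa10, an accessory subunit of complex I. It had 76.7, 69.3 and 63.0 CPM in WT and 86.8, 105 and 98.5 CPM in 5xFAD. The log2 fold change was 0.47 with an SE of 0.11 (edgeR adjusted p = 0.15). All 3 5xFAD values exceeded all 3 WT values. By DESeq2 its adjusted p was 0.0389, and over all alternatives it ranged from 0.0389 to 0.949.

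Atp5d, the delta subunit of the F1 central stalk, had 112, 114 and 102 CPM in WT and 88.3, 84.1 and 95.9 CPM in 5xFAD, without overlap (log2 fold change -0.29 ± 0.089 SE, adjusted p = 0.24). Uqcrc2, a core protein of complex III which shares its 3′ end sequence with Pdzd9, had 133, 123 and 144 CPM in WT and 163, 163 and 148 CPM in 5xFAD (0.25 ± 0.10, adjusted p = 0.32). Atp5sl had a log2 fold change of -0.44 ± 0.16 (adjusted p = 0.29). None of these 4 differences passed the test. Without WT replicate 2 the median was -0.016, 3 rows had an unadjusted p below 0.05 (background 9.17%) and Ndufa10 stood at 0.47 with an adjusted p of 0.28, Uqcrc2 at 0.19, Atp5d at -0.26 and Atp5sl at -0.46. The count of 5 was 13 without WT replicate 3 (21.1% of all genes in the same fit) and 2 without 5xFAD replicate 1 (9.46% of all genes).

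Between the libraries labelled p75NTRko and WT, 0 rows were called (background 0%, DESeq2 0 rows, background 0.429%). The unadjusted p was below 0.05 for 10 rows, 8 higher (background 5.33%) and 2 lower (background 6.16%), together 12.7% against 11.5% of all genes. Libraries did not overlap for 13 rows that were higher (16.5%, background 7.93%) and 5 that were lower (6.33%, background 8.50%). The median of the 79 rows was 0.054, that of all genes -0.00063, and 51 rows were above 0. Cytosolic ribosomal protein genes had a median of 0.069 over 76 genes in the same comparison. The 8 higher rows were Ndufa1, Ndufab1, Ndufb2, Ndufb3 and Ndufb6 of complex I, Uqcrfs1, the Rieske iron-sulfur protein of complex III, and Cox7a1 and Cox7c of complex IV.

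Cox7a1 had 2.99, 3.73 and 4.81 CPM in WT and 3.57, 4.51 and 3.79 CPM in 5xFAD libraries. It had 5.56, 6.90 and 7.58 CPM in those labelled p75NTRko, and 2.997, 2.53 and 3.44 CPM in 5xFAD/p75NTRko, each from 13 to 51 counts. The 3 p75NTRko values lay above all 9 others. Its log2 fold change was 0.80 ± 0.26 (SE) against WT, adjusted p = 0.33. The 4 endothelial markers summed to 97.5 to 125 CPM for WT, 109 to 121 for 5xFAD, 102 to 131 for p75NTRko and 92.2 to 116 for 5xFAD/p75NTRko; their part in Cox7a1 was not tested.

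Cox7c, a short subunit of complex IV, had 372, 223 and 383 CPM in WT and 514, 395 and 553 CPM in the p75NTRko libraries, without overlap (0.58 ± 0.19, adjusted p = 0.34). Without WT replicate 2, its lowest library, the log2 fold change was 0.37 with an adjusted p of 0.59 (0.11 to 0.82 over all alternatives). Atp5d stood at -0.22 ± 0.089 (adjusted p = 0.38) and Ndufs7, an iron-sulfur subunit of complex I, at -0.27 ± 0.12 (adjusted p = 0.42), both lower in all 3 p75NTRko libraries than in all 3 WT libraries. Leaving out WT replicate 2 took the median to 0.026 and the rows with an unadjusted p below 0.05 to 7 (background 8.24%). Cox7a1 then stood at 0.78, Atp5d at -0.19 and Ndufs7 at -0.28. The number was 5 without p75NTRko replicate 2 (9.12% of all genes), 6 without p75NTRko replicate 3 (7.33%) and 14 without WT replicate 3 (18.8%). With Xist class as a term, whose effect rests on the p75NTRko libraries, 3 rows were higher and 1 lower at that threshold (5.99% of all genes).

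Of the 5xFAD/p75NTRko libraries against 5xFAD, 0 rows were called (background 0.0383%, DESeq2 0 rows, background 0.168%), and at an unadjusted p below 0.05 there was 1 row higher (background 1.98%) and 0 lower (background 3.1%), together 1.27% against 5.08% of all genes. Of the 79 rows, 65 were above 0 (82.3%, against 52.8% of all genes), with a median of 0.054 against 0.012. By complex these were 31 of 36 rows in I, 4 of 4 in II, 4 of 8 in III (median 0.0082), 11 of 14 in IV and 15 of 17 in V. Of the ribosomal protein genes, 53 of 76 were above 0 (median 0.056), and of the tricarboxylic acid cycle enzymes 11 of 14 (median 0.085). All 5xFAD libraries had low and all 5xFAD/p75NTRko libraries high Xist. With Xist class as a term, whose effect then rests on the p75NTRko libraries, 58 of 79 rows were above 0 (median 0.071). Libraries did not overlap for 11 rows higher (13.9%, background 5.18%) and 3 lower (3.8%, background 6.02%) in 5xFAD/p75NTRko. Ndufb10, an accessory subunit of complex I, had 74.4, 83.8 and 84.2 CPM in 5xFAD and 91.6, 99.2 and 96.7 CPM in 5xFAD/p75NTRko (0.25 ± 0.092, adjusted p = 0.84), without overlap. Without WT replicate 2 there were 2 rows with an unadjusted p below 0.05 (background 5.92%), and on leaving out any other library 1 to 3, the latter without 5xFAD/p75NTRko replicate 2 (5.96% of all genes). Ndufs8 stood at 0.27 ± 0.15 and Ndufa10 at -0.24 ± 0.11, both with overlapping libraries (adjusted p of 0.98 and 0.97).

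Cox6c had 1654, 1463 and 1516 CPM in 5xFAD and 1149, 1442 and 1423 CPM in 5xFAD/p75NTRko. The groups did not overlap, but the gap between 1442 and 1463 CPM was small and replicate 1 of 5xFAD/p75NTRko lay far below the rest. The log2 fold change was -0.21 ± 0.10 (adjusted p = 0.98). Markers of oligodendrocytes summed to 3951 to 5129 CPM in 5xFAD/p75NTRko and to 5123 to 7366 CPM in 5xFAD. Their part in the values of this comparison was not tested.

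Against the libraries labelled p75NTRko, 0 rows were called in 5xFAD/p75NTRko (background 0%, DESeq2 0 rows, background 0.168%). At an unadjusted p below 0.05 there were 4 rows, 1 higher (background 3.6%) and 3 lower (background 2.99%), together 5.06% against 6.59%, and libraries did not overlap for 2 rows higher (2.53%, background 6.54%) and 8 lower (10.1%, background 5.74%). The median was -0.0011, against 0.014 for all genes, with 38 of 79 above 0. Cox7a1 was lower in all 3 5xFAD/p75NTRko libraries than in all 3 p75NTRko libraries, with a log2 fold change of -1.15 ± 0.27 (adjusted p = 0.42). Ndufa10 was at 71.4, 63.5 and 63.5 CPM in p75NTRko and at 86.3, 87.7 and 72.3 CPM in 5xFAD/p75NTRko (0.31 ± 0.11, adjusted p = 0.71). In all 6 carriers of the transgene together, Ndufa10 lay between 72.3 and 105 CPM, and in the 6 other libraries between 63.0 and 76.7 CPM, so that both ranges met only between 72.3 and 76.7 CPM. Without WT replicate 2 the count of 4 was 4 (background 7.99%). With Xist class as a term, 0 rows were higher and 1 lower at an unadjusted p below 0.05 (5.07% of all genes). Ndufb2, an accessory subunit of complex I, stood at -0.24 ± 0.088 (adjusted p = 0.71) and Atp5g2 at 0.47 ± 0.24 (adjusted p = 0.79, overlapping libraries).

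In 5xFAD/p75NTRko against WT, 0 rows were called (background 0%, DESeq2 0 rows, background 0.237%). The unadjusted p was below 0.05 for 3 rows, all higher (background 5.51%), and 0 were lower (background 4.44%), together 3.8% against 9.95%, and libraries did not overlap for 3 rows higher (3.8%, background 5.95%) and 3 lower (3.8%, background 5.53%). The median was 0.025, against 0.0042 for all genes. Cox5b, a zinc-binding subunit of complex IV, had 119, 105 and 118 CPM in WT and 130, 137 and 130 CPM in 5xFAD/p75NTRko (0.22 ± 0.081, adjusted p = 0.47), without overlap, and a log2 fold change of 0.16 without WT replicate 2. Ndufb6 stood at 0.32 ± 0.14 (adjusted p = 0.49), and at 0.16 without WT replicate 2. Cox6c stood at -0.20 ± 0.10 (adjusted p = 0.51) and Atp5o, the subunit that joins the F1 head to the stator, at -0.16 ± 0.094 (adjusted p = 0.55), and without WT replicate 2 at -0.14 and -0.11. Without that library the median was 0.028 and 1 row had an unadjusted p below 0.05 (background 6.06%). The count of 3 was 8 without WT replicate 1 (9.9% of all genes in the same fit), 11 without WT replicate 3 (16.2%) and 14 without 5xFAD/p75NTRko replicate 3 (15.8%). It was 1 without 5xFAD replicate 2 (8.76%), p75NTRko replicate 3 (8.63%) or 5xFAD/p75NTRko replicate 2 (4.53%).

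**Figure D5:**
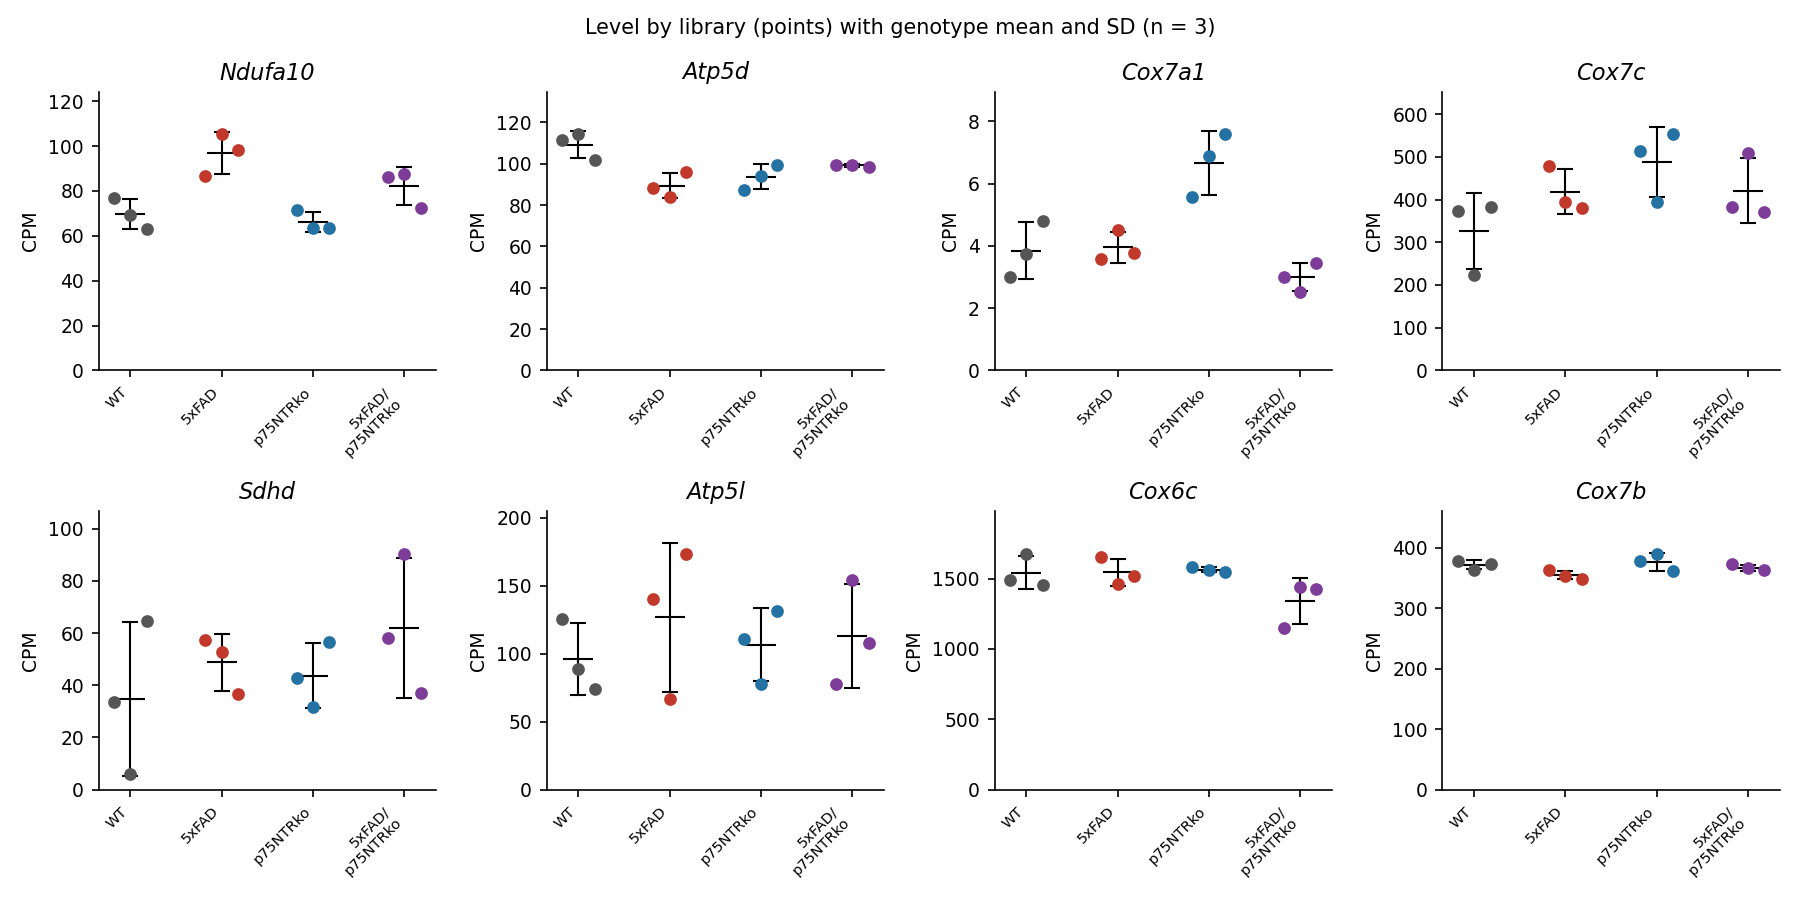
CPM by library (points) with genotype mean and SD (n = 3) for 8 respiratory chain genes, each axis starting at 0. Ndufa10 is highest in 5xFAD (86.8 to 105 CPM), Cox7a1 in p75NTRko (5.56 to 7.58 CPM), Sdhd and Cox7c are low in WT replicate 2, Atp5l varies in all genotypes, and the X-linked Cox7b stays between 349 and 390 CPM.

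The interaction asks whether the difference that goes with the transgene is the same with and without the receptor label. It called 0 of the 79 rows (background 0.0383%, DESeq2 0 rows, background 0.191%). The unadjusted p was below 0.05 for 5 rows, 1 above 0 (background 5.19%) and 4 below (background 4.13%), together 6.33% against 9.32%, and the median was 0.0047 against 0.0024 for all genes. The smallest p was that of Cox7a1, with an interaction of -1.19 ± 0.38 (adjusted p = 0.40). Atp5d stood at 0.37 ± 0.13 (adjusted p = 0.42): its fold changes were -0.29 in 5xFAD and -0.22 in p75NTRko against WT, and its 3 values in 5xFAD/p75NTRko were 99.6, 99.6 and 98.5 CPM. Ndufab1, the mitochondrial acyl carrier protein, stood at -0.31 ± 0.12 (adjusted p = 0.49), and Cox6a2 at 1.04 ± 0.51 (adjusted p = 0.54) from 18 to 64 counts. Without WT replicate 2 the median was 0.012, Cox7a1 stood at -1.18, Atp5d at 0.34, Ndufab1 at -0.27 and Cox6a2 at 0.78, and 4 rows had an unadjusted p below 0.05 (background 8.24%). That count was 9 without WT replicate 3 (15.5% of all genes in the same fit), 8 without 5xFAD/p75NTRko replicate 2 (12% of all genes) and 2 without p75NTRko replicate 3 (6.81%). It was 3 without 5xFAD replicate 1 (7.51%) or 5xFAD/p75NTRko replicate 1 (11.3%). With Xist class as a term, 1 row was above 0 and 0 below at an unadjusted p below 0.05 (3.98% of all genes).

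The functional groups within the complexes gave the same counts, with 0 called rows in every comparison. The 7 flavoprotein and iron-sulfur subunits of complex I, which carry electrons from NADH to ubiquinone, had a median of -0.10 in 5xFAD against WT, with 2 of 7 above 0, and of 0.11 in 5xFAD/p75NTRko against 5xFAD, with 7 of 7 above 0. The 5 subunits of the F1 head had medians of 0.044 in 5xFAD, 0.14 in p75NTRko and 0.11 in 5xFAD/p75NTRko against WT, with Atp5d the only one of the 5 below 0 each time. For complex II the medians of its 4 subunits lay between 0.020 and 0.085 over the 6 comparisons. Of the 3 core proteins of complex III, 2 were above 0 in each comparison with WT.

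The 3 rows on the X chromosome, Ndufa1, Ndufb11 and Cox7b, overlapped between libraries with high and low Xist. Ndufa1 had 135 to 281 CPM (median 266) in the 7 libraries with high Xist and 233 to 293 CPM (median 239) in the 5 with low Xist. Ndufb11 had 87.9 to 120 CPM (median 101) and 101 to 109 CPM (median 109). Cox7b had 363 to 379 CPM (median 373) and 349 to 390 CPM (median 361).

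Genes that build or feed the chain but are not part of it also had 0 calls in all 6 comparisons. Of 45 assembly factors, 41 were tested, and their medians in the comparisons with WT were -0.012 in 5xFAD, -0.021 in p75NTRko and -0.0094 in 5xFAD/p75NTRko. The 14 enzymes of the tricarboxylic acid cycle had medians of 0.027, 0.081 and 0.079. Of these, 12 of 14 were above 0 in p75NTRko and 13 of 14 in 5xFAD/p75NTRko. Cyc1 had 41.3 to 51.8 CPM over the 12 libraries and a log2 fold change of -0.085 in 5xFAD against WT. Among 13 tested regulators of mitochondrial genes, 10 were above 0 in 5xFAD against WT (median 0.087), 6 in p75NTRko (median -0.0067) and 10 in 5xFAD/p75NTRko (median 0.097). Yy1, whose binding letters were searched in the promoters, had 36.0, 29.7 and 40.98 CPM in WT and 43.5, 48.6 and 50.7 CPM in 5xFAD (0.42 ± 0.12, adjusted p = 0.23). All 3 5xFAD values were above the WT values. The other factors whose letters were searched stood in the same comparison at 0.11 for Nrf1, 0.086 for Gabpa, -0.23 for Esrra and -0.18 for Esrrg. Esrrb stood at -2.17 (adjusted p = 0.30), from 0.897, 2.92 and 1.49 CPM in WT and 0.509, 0.563 and 0 CPM in 5xFAD, close to the limit of measurement. Tfam, which packages and transcribes mitochondrial DNA, ranged from 62.2 to 79.8 CPM, and Ppargc1a, the coactivator of mitochondrial biogenesis, from 47.7 to 67.2 CPM over the 12 libraries.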

How the data were processed

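The authors deposited 1 table of raw read counts per gene symbol for 12 hippocampal libraries; the submitters' processing notes name FastQC, HISAT2, SAMtools, HTSeq, edgeR and the build mm10, and the annotation and use of strand are not given in the sources used here. The 5 summary lines at the end of the table were left out of library sizes; reads assigned to genes were 32.2% to 38.5% of each library's reads in the table and reads aligned to several places 9.58% to 12.1%. Columns of other samples numbered 0. Depth was 4316739 to 6683613 gene counts per library; floors cover counting error only, and the sources used here name no molecular identifiers.

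Counts were filtered by filterByExpr and scaled by TMM, and the 12 libraries entered a single quasi-likelihood model (edgeR 4.0.16, R 4.3.3) whose terms were the 4 genotype means. P-values were adjusted by Benjamini and Hochberg's method across 13065 genes, and those below 0.05 were called. CPM values use TMM-scaled library sizes, and log2 CPM a prior count of 2. The procedure was tested on simulated counts. Named rows are the highest and lowest of each complex, up to 2 higher and 2 lower rows of smallest p per comparison, functional groups and X-linked rows. Sdhd, Atp5l, Atp5j and the rows low in WT replicate 2 were chosen after their values were seen. The members and lists were chosen with earlier results of these data known. Alternatives were DESeq2 1.42.0, RLE scaling, other filters, fewer genotypes, a replicate block, an Xist term, subunits only, each library left out and, added after the data were seen, an offset for 3′ GC content and the rows without shared sequence. Promoters and positions came from RefSeq GRCm38.p6, the same assembly as mm10, and transcripts from GENCODE vM21. No pair of libraries in a genotype was as close as counting noise (lowest chi-square per degree of freedom 3.09).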

Additional observations from a re-analysis of the deposited data

How the results depend on the processing

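Of 131 counts of called respiratory chain rows under the alternatives, 1 was not 0: by DESeq2, 5xFAD against WT gave 1 row, Ndufa10, at a log2 fold change of 0.47 with an adjusted p of 0.0389. Leaving out each library in turn gave 0 to 0 called rows in every comparison. Medians of the 79 rows then ranged from -0.034 to 0.0024 (5xFAD against WT), 0.026 to 0.056 (p75NTRko against WT), 0.051 to 0.065 (5xFAD/p75NTRko against 5xFAD), -0.029 to 0.0077 (against p75NTRko), 0.016 to 0.034 (against WT) and -0.020 to 0.018 (interaction). With the offset for 3′ GC content, added after the data were seen, the medians in the same order were 0.014 (46 of 79 above 0, where 38 were), 0.070, 0.051, -0.0040, 0.061 and -0.042, so that the sign turned in 5xFAD against WT and in the interaction; the cause was not tested. The 24 results on named rows gave 509 values under the alternatives, of which 0 changed sign. These rows were chosen for their small p in the same libraries, so that their signs had little room to change. No pairing by replicate number was seen: correlations of same-numbered deviations were -0.42 to 0.14, 2 of 18 were over 0.1. Of the 12 libraries, 3 correlated best with their own number. With 3 libraries per genotype, and the deviation of WT replicate 2 among them, these values cannot show that there was no pairing. With the replicate block, 0 rows were called in each comparison and all-gene calls went from 7, 0, 5, 0, 0 and 5 to 1, 0, 0, 0, 0 and 3, in the order above. By DESeq2 all-gene calls were 97, 56, 22, 22, 31 and 25, and without WT replicate 3 they were 57 and 26 in 5xFAD and p75NTRko against WT. The interaction uses all 4 genotypes, so that no fit with fewer was made for it. At these depths rows under 3 counts, such as Cox8c, could not be compared.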
